A study of Mus musculus with 48 samples.

Results

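The livers of mice fed 14% of their energy as protein were set against those of mice fed 33%, the middle of a range of diets that ran from 5% to 60% protein. The comparison used 17 of the 48 livers in the series, 8 at 14% and 9 at 33%, and the mice were chosen by their diet labels, with 1 exception given below. Diets are written as protein/carbohydrate/fat in percent of energy, and energy density is High or Medium as labelled in these 17 mice. Some mice at the other protein shares, used only for levels, ate at Low energy. At 14% protein, 4 mice ate 14/29/57 at High energy, 2 ate 14/57/29 at High energy and 2 ate 14/57/29 at Medium energy. At 33% protein, 2 mice ate 33/20/47 at High energy, 2 ate 33/47/20 at High energy, 3 ate 33/20/47 at Medium energy and 2 ate 33/47/20 at Medium energy. Every mouse had had free access to its diet since it was 3 weeks old, and the livers were collected at 15 months from 1 mouse of each cage, so the arrays came from separate animals. The shares add up to the whole diet, so the 33% mice ate smaller shares of both carbohydrate and fat, and the comparison is of protein in place of both. The sources used here gave neither strain nor the sex of each mouse. One further mouse at 14% protein, the only one on 14/29/57 at Medium energy, was left out because of its measured profile and not because of its diet: its markers of macrophages and neutrophils lay far above those of the other mice. Adding it moved the difference of 48 of 101 named genes by more than 1.5 times or turned its direction, and values with it added stand beside the lists and genes that it moved most.

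The liver takes up amino acids from the gut, burns those that are not needed, and passes their nitrogen into the urea cycle. Transsulfuration, a branch of this catabolism, carries the sulfur of methionine to cysteine through the enzymes Cbs and Cth. When an amino acid runs short, the transcription factor ATF4 turns on genes of amino acid synthesis and uptake and the liver hormone Fgf21. Carbohydrate and insulin act the other way on the fuel side: through the factors encoded by Srebf1 and Mlxipl (ChREBP) they raise glycolysis and the making of fatty acids by Acly, Acaca, Fasn and Scd1.

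Promoters of 3 genes are shown because the results turn on the programmes they belong to. Pklr, the liver pyruvate kinase, and Mlxipl stand for the carbohydrate-driven programme, whose genes lay lower at 33% protein, and Fgf21 stands for the ATF4 programme, for which no difference was detected. The sequences are the 250 bases before the transcription start, 5′ to 3′ on the gene's strand, from RefSeq's GRCm38.p6. In Pklr (chr3:89136373-89136622, plus strand) the capitals mark CACGGG and its reverse complement CCCGTG, which begin 170 and 159 bases before the start and are known as the carbohydrate response element of this gene. In Mlxipl (chr5:135089640-135089889, plus strand) they mark the E-box CACGTG, 98 bases before the start. In Fgf21 (chr7:45615491-45615740, minus strand) they mark TTGCATCA, the core of a site that C/EBP and ATF proteins share, 139 bases before the start, and CACGTG, 50 bases before it. Pklr and Mlxipl each had 2 windows in the table, of which the one holding the letters is shown.
Pklr: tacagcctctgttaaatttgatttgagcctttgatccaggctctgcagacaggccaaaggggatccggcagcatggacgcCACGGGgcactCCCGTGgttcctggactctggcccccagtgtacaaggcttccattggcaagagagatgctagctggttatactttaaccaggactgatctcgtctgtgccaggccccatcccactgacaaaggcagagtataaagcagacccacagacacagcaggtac
Mlxipl: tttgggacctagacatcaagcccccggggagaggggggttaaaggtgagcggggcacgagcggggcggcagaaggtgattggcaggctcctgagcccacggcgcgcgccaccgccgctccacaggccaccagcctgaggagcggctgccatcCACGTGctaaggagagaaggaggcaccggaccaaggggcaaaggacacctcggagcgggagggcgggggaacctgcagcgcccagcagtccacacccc
Fgf21: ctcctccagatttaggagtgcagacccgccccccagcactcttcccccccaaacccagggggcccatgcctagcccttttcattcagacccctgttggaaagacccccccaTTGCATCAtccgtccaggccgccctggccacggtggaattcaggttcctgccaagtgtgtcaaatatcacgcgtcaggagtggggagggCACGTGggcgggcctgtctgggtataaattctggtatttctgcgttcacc

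The same letters were searched on both strands of the 250 bases before the start of every gene in the promoter table, 27025 in all. CACGTG was found in 6.86% of all genes, in 3 of the 17 fatty acid synthesis genes with a promoter (Elovl5, Mlxipl and Slc25a1) and in 4 of 18 genes of glycolysis and fructose handling (Khk, Mlxipl, Pdk2 and Pfkfb3), in 4 of 15 cholesterol synthesis genes and in 3 of 25 ATF4 targets. CACGGG, a motif added after the values had been seen, was found in 9.69% of all genes, in 2 fatty acid synthesis genes, 3 genes of glycolysis and fructose handling, 1 cholesterol synthesis gene and 5 ATF4 targets. TTGCATCA was found in 0.918% of all genes and in 7 of 25 ATF4 targets. The cyclic AMP response element TGACGTCA was found in 1.77% of all genes, in 1 fatty acid synthesis gene (Pnpla3) and in 1 ATF4 target (Ppp1r15a). CACGTG reads the same on both strands, and no motif overlaps another in the 3 promoters shown.

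Values were log2 expression on 1 Affymetrix array per mouse. Each difference is the 33% level minus the 14% level on the log2 scale, from a limma model of all 17 mice that also held energy density and the carbohydrate minus fat share, and the error given is the standard error. The interquartile range of an array's values, a measure of its contrast, was 3.27 ± 0.16 (SD, n = 8) at 14% and 3.17 ± 0.14 (SD, n = 9) at 33% (two-sided exact permutation p = 0.173). It is given beside results that moved when it was added to the model. Y-linked genes lay above Xist in 4 of 8 mice at 14% and in 5 of 9 at 33%. The standard error of a difference had a median of 0.15 over genes. In simulated data 24% of true differences of 0.5, 82% of those of 1 and 96% of those of 2 were recovered. Those data held many planted differences, up to 3 in size, in noise that was independent between genes. The shares recovered may therefore be too high for the real mice, whose arrays also differ in contrast and sex-linked genes. Hepatocyte markers were high in both groups: Alb, the serum albumin gene, lay between 12.88 and 12.99 at 14% and between 12.63 and 13.04 at 33%.

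Between 14% and 33% protein, no gene passed the test. At a Benjamini-Hochberg adjusted p under 0.05 limma called 0 of 17075 genes (0%), and the smallest adjusted p was 0.0627. At an unadjusted p under 0.05, 850 genes lay higher at 33% (4.98%) and 1132 lay lower (6.63%), 1982 in all, where chance alone gives about 853.75. With array interquartile range as a further term these counts were 579 higher (3.39%) and 580 lower (3.4%). Leaving out 1 mouse at a time, the total ran from 1201, without replicate 1 of High 33/20/47, to 2855, without replicate 1 of High 33/47/20. The direction of the difference was positive for 48.7% of all genes tested and negative for 51.3%, and only 43 genes differed by 1 or more, 31 lower at 33% and 12 higher. None of the genes below passed the adjusted threshold in the comparison of these 17 mice, so their values are descriptions of how the mice differed, read against these shares.

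The strongest separation was in Lncbate1, a long non-coding RNA known for its part in brown fat, on chromosome 8 in RefSeq. Its level ran from 1.73 to 4.05 with a median of 3.52 at 14% protein and from 4.21 to 5.87 with a median of 5.06 at 33%. Every mouse at 33% lay above every mouse at 14%. The difference was 1.87 ± 0.29 (limma adjusted p = 0.0627), a fitted ratio of 3.67, with a 95% interval from 1.27 to 2.48. It was 1.98 in High energy mice alone, 2.05 in Medium energy mice alone, 1.93 on the carbohydrate-rich diets and 2.10 on the fat-rich High energy diets. Under 9 other settings the gene passed the threshold. Its limma adjusted p was 0.0212 with the left-out mouse added, 0.0467 in a model of all 48 mice, 0.0475 after quantile normalization and 0.00231 without replicate 1 of Medium 14/57/29. The model of all 48 mice compared 8 mice at 14% with 6 at 33% in matched combinations of diet and energy. The other mice entered it only through the variance. Under every other setting run the gene did not pass. With the interquartile range as a term the difference was 1.81 and the smallest limma adjusted p of any gene 0.284. That smallest adjusted p was 0.413 without replicate 2 of High 33/47/20, 0.287 without replicate 1 of High 33/20/47 and 0.197 in High energy mice alone.

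Cth, the enzyme that releases cysteine at the end of transsulfuration, came next. It ran from 9.71 to 10.55 with a median of 10.18 at 14% and from 10.68 to 11.37 with a median of 10.79 at 33%, again with no overlap. The difference was 0.82 ± 0.15 (limma adjusted p = 0.215), with a 95% interval from 0.51 to 1.13, and it lay between 0.79 and 1.03 within High energy, Medium energy, carbohydrate-rich and fat-rich mice. The next 4 genes of smallest p in the upward direction were 9430083A17Rik (0.84 ± 0.17), Fastkd2 (0.56 ± 0.12), a factor of mitochondrial RNA and ribosomes, Kynu (0.42 ± 0.09), the kynureninase of tryptophan breakdown, and Mc5r (0.50 ± 0.11), a melanocortin receptor. Mc5r and 9430083A17Rik lay near the bottom of the scale in every mouse, with means of 1.38 and 1.43 at 14%.

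Of all genes tested, 5 had every 33% mouse above every 14% mouse (0.0293%) and 3 had every 33% mouse below (0.0176%). The 5 were Lncbate1, Cth, Mc5r, Crem, a transcription factor of cyclic AMP signalling, and Coq2, an enzyme of ubiquinone synthesis, with differences of 0.41 ± 0.12 for Crem and 0.33 ± 0.13 for Coq2. The 3 were Stat6, the transcription factor of interleukin-4 signalling, Prkce, a protein kinase C, and Pex6, a factor of peroxisome assembly. Crem, Coq2 and Pex6 were named after their values had been seen. With the left-out mouse counted at 14%, the same 5 stayed apart but only 1 of the 3, Stat6. That mouse stood at 4.87 for Prkce, inside the 33% range of 4.41 to 5.48, and at 4.51 for Pex6, below the lowest 33% mouse at 5.66.

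Stat6 ran from 7.29 to 7.59 with a median of 7.42 at 14% and from 6.67 to 7.17 with a median of 6.96 at 33%, a narrow spread around a difference of -0.48 ± 0.09 (limma adjusted p = 0.243). Prkce differed by -0.76 ± 0.15 and Pex6 by -0.63 ± 0.14, or -0.31 with the left-out mouse added. The other genes of smallest p in the downward direction were Lpin1 (-1.40 ± 0.27), Adamts7 (-0.97 ± 0.19), a secreted metalloprotease, Inhba (-1.33 ± 0.27), the activin A subunit, and Epn1 (-0.56 ± 0.12), an endocytic adaptor. Inhba ran from 4.20 to 5.51 with a median of 4.90 at 14% and from 2.72 to 4.31 with a median of 3.35 at 33%. The 2 groups of Inhba overlapped between 4.20 and 4.31.

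**Figure D1:**
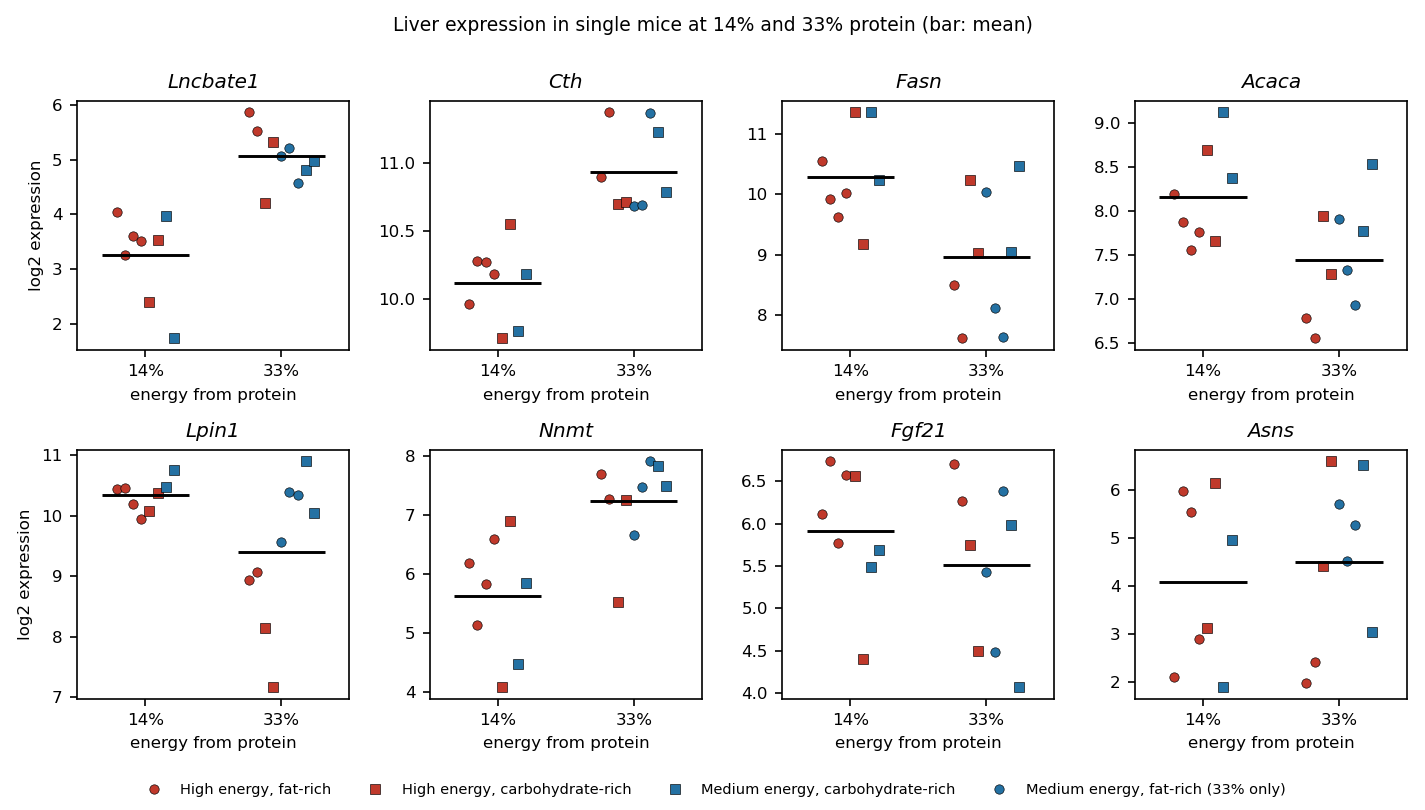
Log2 expression of 8 genes in each of the 17 mice at 14% and 33% of energy from protein, with the mean of each group as a bar, colour for energy density and symbol for the carbohydrate-rich or fat-rich diet. The groups do not overlap for Lncbate1 and Cth, the High energy mice at 33% lie lowest for Lpin1, and both groups cover nearly the same span for Fgf21 and Asns.

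The enzymes that break down amino acids lay mostly higher at 33% protein, by small amounts. Of 39 amino acid catabolism genes tested, 26 had a positive difference, with a median of 0.10 against -0.01 over all genes, and 12 lay higher and 2 lower at an unadjusted p under 0.05. The mean of the list in a mouse, relative to the mean of all 17, ran from -0.34 to 0.00 at 14% and from -0.03 to 0.28 at 33%, so the groups barely overlapped. Besides Cth and Kynu, the genes of smallest p were Glyctk and Agxt. Agxt, which turns glyoxylate into glycine, differed by 0.47 ± 0.13, and Glyctk, the glycerate kinase, by -0.50 ± 0.11 in the opposite direction. Kynu ran from 8.42 to 8.77 with a median of 8.50 at 14% and from 8.73 to 9.18 with a median of 8.83 at 33%, where only the single highest 14% mouse reached the 33% range. With the left-out mouse added, whose own list mean was -1.77, the median of the list was 0.44 and 16 genes lay higher. Kynu then differed by 0.77 and Agxt by 0.90, while Glyctk was near level at -0.058.

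The urea cycle also lay mostly higher at 33% protein. Of its 8 genes, 7 had a positive difference with a median of 0.17, and 1 lay higher at an unadjusted p under 0.05: Slc25a15, the mitochondrial ornithine carrier (0.53 ± 0.18). Cps1, which commits ammonia to the cycle, ran from 11.62 to 12.04 with a median of 11.93 at 14% and from 11.94 to 12.35 with a median of 12.11 at 33%. Its difference of 0.16 ± 0.08 had a 95% interval from -0.0037 to 0.33. Asl, the argininosuccinate lyase, differed by 0.30 ± 0.17. When the left-out mouse was added, the median was 0.34, 4 genes lay higher, and Slc25a15 differed by 0.87. Sds, serine dehydratase, lay below the filter on low values and was not tested.

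Breakdown of the branched-chain amino acids leaned one way. Of 21 genes, 20 had a positive difference, with a median of 0.20, and 5 lay higher at an unadjusted p under 0.05, led by Hsd17b10 (0.43 ± 0.11), Acadsb (0.38 ± 0.11), Mcee (0.40 ± 0.14) and Auh (0.33 ± 0.12), all mitochondrial enzymes of the pathway. With the interquartile range as a term the median was 0.17 and 3 lay higher. In the 18 mice that include the left-out one, it was 0.38 and 13 lay higher.

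The methionine, transsulfuration and taurine genes split, 9 positive and 8 negative of 17 with a median of 0.07. Nnmt, which methylates nicotinamide and so uses methyl groups from methionine, ran from 4.08 to 6.91 with a median of 5.84 at 14% and from 5.52 to 7.92 with a median of 7.48 at 33%. The difference was 1.52 ± 0.40 (limma adjusted p = 0.349), a fitted ratio of 2.87, and 2 mice at 33%, at 5.52 and 6.67, lay below the highest 14% mouse. Gnmt, which burns surplus S-adenosylmethionine, differed by 0.33 ± 0.11. Chdh, the choline dehydrogenase that feeds betaine synthesis, differed by -0.62 ± 0.16, and Csad, on the path from cysteine to taurine, by -0.99 ± 0.41. Once the left-out mouse was added, the list median was 0.20, Chdh differed by -0.27 and Csad by -0.61.

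Genes of fatty acid synthesis lay lower at 33% protein without exception. All 19 genes tested had a negative difference, with a median of -0.64, and 14 lay lower at an unadjusted p under 0.05, against 6.63% of all genes. Fasn, the fatty acid synthase, ran from 9.18 to 11.36 with a median of 10.12 at 14% and from 7.62 to 10.47 with a median of 9.03 at 33%. The groups overlapped, and the highest 33% mice were on the carbohydrate-rich diets or fat-rich at Medium energy. The difference was -1.33 ± 0.39 (limma adjusted p = 0.382), with a 95% interval from -2.15 to -0.51. Acaca, the acetyl-CoA carboxylase that precedes Fasn, ran from 7.56 to 9.13 with a median of 8.03 at 14% and from 6.55 to 8.54 with a median of 7.33 at 33%, a difference of -0.84 ± 0.20 (limma adjusted p = 0.302). Acly, which supplies the acetyl-CoA, differed by -0.82 ± 0.23, Scd1, the desaturase, by -0.69 ± 0.25, and the regulator Srebf1 by -0.64 ± 0.19. The widest intervals in the list were those of Pnpla3, around -1.69, and Acacb, around -1.27.

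The lower median of this list held within subsets of the mice. The list median was -0.50 in High energy mice, -0.68 in Medium energy mice, -0.51 on the carbohydrate-rich diets and -0.58 on the fat-rich High energy diets. Positive genes numbered 1 in Medium energy mice, 1 on the carbohydrate-rich diets and 2 on the fat-rich High energy diets. With the interquartile range as a term the median was -0.63 and 9 genes lay lower. The left-out mouse had the lowest level of the list of any of the 18, with Fasn at 4.85 and Acaca at 4.85. With it added, 15 of the 19 genes were negative and 4 positive, the median was -0.32 and 1 gene lay lower. Fasn then differed by -0.57, Acaca by -0.33, Acacb by -0.69, Scd1 by -0.23 and Srebf1 by -0.35.

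**Figure D2:**
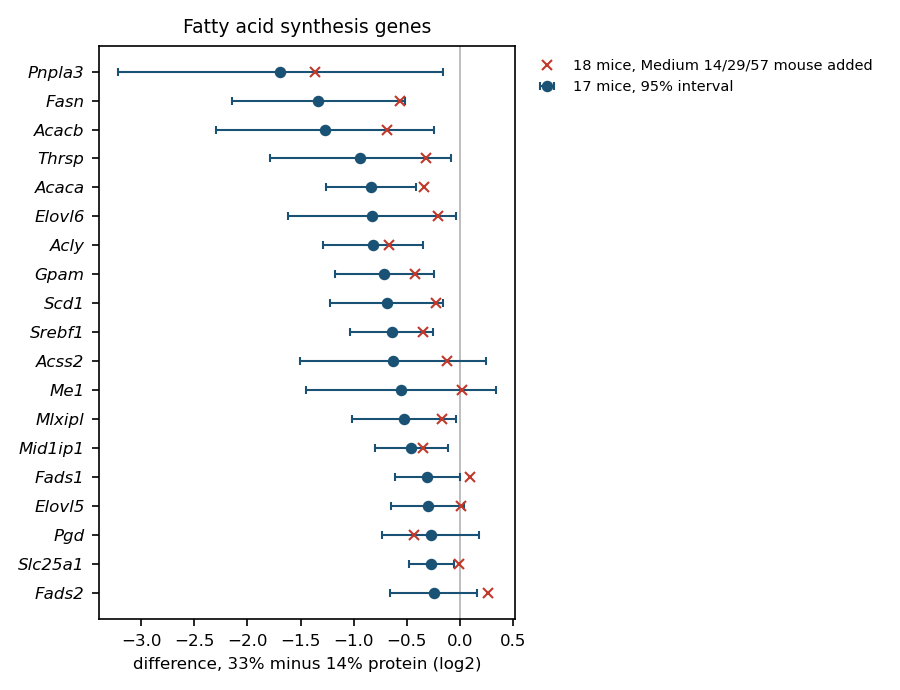
Difference between 33% and 14% protein (log2) for the 19 fatty acid synthesis genes tested. Points are estimates from 17 mice with 95% intervals, all points lie below 0 and 5 intervals cross it, and crosses are estimates with the left-out Medium 14/29/57 mouse added, most of which lie nearer to 0.

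Glycolysis and fructose handling leaned lower. Of 18 genes, 13 had a negative difference with a median of -0.15, 4 lay lower and 1 higher at an unadjusted p under 0.05. With the interquartile range as a term the median was -0.08 and 2 lay lower. Pklr, whose promoter is shown above, ran from 9.17 to 10.83 with a median of 10.16 at 14% and from 7.95 to 10.38 with a median of 9.21 at 33%, a difference of -0.91 ± 0.33 (limma adjusted p = 0.382). Tkfc, which phosphorylates the glyceraldehyde that fructose gives, differed by -0.45 ± 0.10 (limma adjusted p = 0.245), and Mlxipl by -0.53 ± 0.23. Pgk1, a kinase of the shared lower part of the pathway, lay on the other side at 0.22 ± 0.09. In gluconeogenesis 9 of 15 genes were positive with a median of 0.04. Fbp1, the fructose bisphosphatase, differed by 0.24 ± 0.10, and Foxo1, which drives the programme in fasting, by -0.52 ± 0.18. Pck1, the committing enzyme, did not stand apart: 0.056 ± 0.11, with a 95% interval from -0.17 to 0.28. With the left-out mouse added the glycolysis median was -0.16 and 2 genes lay lower. Pklr then differed by -0.49, Tkfc by -0.11, Mlxipl by -0.16, Pgk1 by 0.098 and Fbp1 by 0.48.

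Cholesterol synthesis genes were negative for 18 of 19, with a median of -0.34, and 4 lay lower at an unadjusted p under 0.05: Lss (-0.78 ± 0.27), Fdps (-0.68 ± 0.30), Fdft1 (-0.54 ± 0.25) and Dhcr7 (-0.41 ± 0.19), enzymes that build squalene and lanosterol and finish the sterol. The level was uneven among the 33% mice, with list means from -1.21 to 0.34 against -0.12 to 0.55 at 14%. The median was -0.11 in High energy mice and -0.92 in Medium energy mice, and 0.06 with the left-out mouse added. With that mouse Lss differed by -0.36, Fdps by -0.069, Fdft1 by -0.19 and Dhcr7 by -0.15, and in limma 0 genes of the list lay lower at an unadjusted p under 0.05. Cyp7a1, the rate-limiting enzyme of bile acid synthesis, differed by -0.66 ± 0.38, and the bile acid list was even at 10 positive and 10 negative with 0 genes past an unadjusted p of 0.05 in limma. When the left-out mouse was added, the bile acid median was 0.31 and Cyp7a1 differed by -0.41.

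Lpin1 and Rgs16 lay lower at 33% protein by more than 1 log2 unit. Lpin1, a phosphatidate phosphatase that also acts in the nucleus as a regulator of fat oxidation, ran from 9.94 to 10.76 with a median of 10.40 at 14% and from 7.17 to 10.90 with a median of 9.56 at 33%. The 4 High energy mice at 33% lay between 7.17 and 9.07, below every 14% mouse, whereas 4 of the 5 Medium energy mice at 33% lay within the 14% range or above it. The difference was -1.81 in High energy mice and -0.14 in Medium energy mice, and the protein by energy interaction for this gene was 1.34 ± 0.52 (limma adjusted p = 0.998), so the 2 differences could not be told apart after adjustment. Rgs16, a regulator of G protein signalling in liver known to vary with feeding, was named after its values had been seen. It ran from 9.46 to 11.02 with a median of 10.40 at 14% and from 5.53 to 9.59 with a median of 8.94 at 33%, and its difference was -2.04 ± 0.44 (limma adjusted p = 0.245). Only the highest 33% mouse lay above the lowest 14% mouse. Lrtm1, a leucine-rich membrane protein gene also named after its values, lay on the other side with 2.08 ± 0.49. In the 18 mice that include the left-out one, Lpin1 differed by -0.86 and Rgs16 by -1.59.

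Fat oxidation and fat storage showed little net difference. Of 29 PPAR alpha targets and fatty acid oxidation genes, 11 were positive with a median of -0.03. Ppara differed by -0.51 ± 0.18, Slc25a20, the carnitine carrier, by 0.35 ± 0.14, Decr1 by 0.28 ± 0.11, and Cpt1a, the gate of mitochondrial oxidation, by -0.25 ± 0.16 with a 95% interval from -0.58 to 0.087. Of 21 lipid droplet genes, 9 were positive with a median of -0.10 and 3 lay lower at an unadjusted p under 0.05, among them Dgat2 (-0.34 ± 0.11) and Lpin2 (-0.59 ± 0.21), both of triglyceride synthesis, beside Lpin1. Apolipoproteins were even at 9 positive of 16 with a median of 0.02. Once the left-out mouse was added, the medians of these 3 lists were 0.09, -0.07 and 0.14. Ppara then differed by -0.094, Cpt1a by -0.063, Dgat2 by -0.0087 and Lpin2 by -0.39.

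The programme of amino acid shortage did not separate these mice. Of 30 ATF4 targets, 13 were positive with a median of -0.04, and 1 lay higher and 1 lower at an unadjusted p under 0.05. Fgf21 ran from 4.40 to 6.74 with a median of 5.95 at 14% and from 4.07 to 6.70 with a median of 5.75 at 33%, so both groups filled the same span. The difference was -0.35 ± 0.36 (limma adjusted p = 0.725), with a 95% interval from -1.11 to 0.41, and 0.0069 with the left-out mouse added. Asns, asparagine synthetase, ran from 1.88 to 6.16 with a median of 4.04 at 14% and from 1.96 to 6.62 with a median of 4.51 at 33%. Its spread within each group was wide, and the 95% interval of its difference of 0.37 ± 0.81 ran from -1.33 to 2.08, which at this number of mice still holds differences of 1 in either direction. Psat1, of serine synthesis, lay near the bottom of the scale in both groups with means of 1.50 and 1.71. Amino acid synthesis as a list was even, 5 positive and 5 negative of 10, with 0 genes past an unadjusted p of 0.05 in limma. Lepr, the leptin receptor, differed by -0.31 ± 0.47. With the left-out mouse added the ATF4 median was -0.13 and that of amino acid synthesis -0.11, Asns differed by 0.15 and Lepr by -0.62.

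Amino acid transporters lay lower more often than higher at an unadjusted p under 0.05, 6 against 1 of 22, with a median of -0.04. The genes of smallest p were Slc25a44 (-0.57 ± 0.16), a mitochondrial carrier of branched-chain amino acids, Slc6a13 (-0.34 ± 0.11), a carrier of taurine and GABA, Slc36a1 (-0.43 ± 0.16), a lysosomal carrier, and Slc38a3 (-0.34 ± 0.13), a glutamine carrier. When the left-out mouse was added, 4 lay lower and 2 higher, the median was 0.02, and Slc25a44 differed by -0.32, Slc6a13 by -0.081 and Slc38a3 by -0.014.

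Mitochondrial and proteasome genes leaned higher at 33% protein. Of 58 genes of oxidative phosphorylation, 56 had a positive difference, with a median of 0.25, and 26 lay higher and 0 lower at an unadjusted p under 0.05 in limma. The genes of smallest p were Ndufa12 (0.44 ± 0.11), Ndufa13 (0.32 ± 0.09), Ndufb7 (0.48 ± 0.13), all of complex I, and Cox7a2 (0.42 ± 0.12), of complex IV. List means ran from -0.27 to 0.09 at 14% and from -0.16 to 0.36 at 33%, so the groups overlapped. The list median was 0.10 on the carbohydrate-rich diets and 0.44 on the fat-rich High energy diets. In that fat-rich subset Xist lay above the Y-linked genes in both mice at 33% but only in some of those at 14%. Of 30 proteasome genes, 28 were positive with a median of 0.25 and 12 lay higher, among them Psmc4 (0.33 ± 0.11) and Psmd14 (0.41 ± 0.14). With the interquartile range as a term both medians were 0.17, and 13 and 3 genes lay higher, against 3.39% of all genes. Of 20 tricarboxylic acid cycle genes 13 were positive with a median of 0.08 and 5 lay higher, 2 with that term. Fh1, the fumarase, differed by 0.59 ± 0.17 and Sdhb, of succinate dehydrogenase, by 0.29 ± 0.11. In the 18 mice that include the left-out one, the 3 medians were 0.32, 0.26 and 0.14, and 34, 15 and 6 genes lay higher. The part of array contrast in these small differences was not tested.

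**Figure D3:**
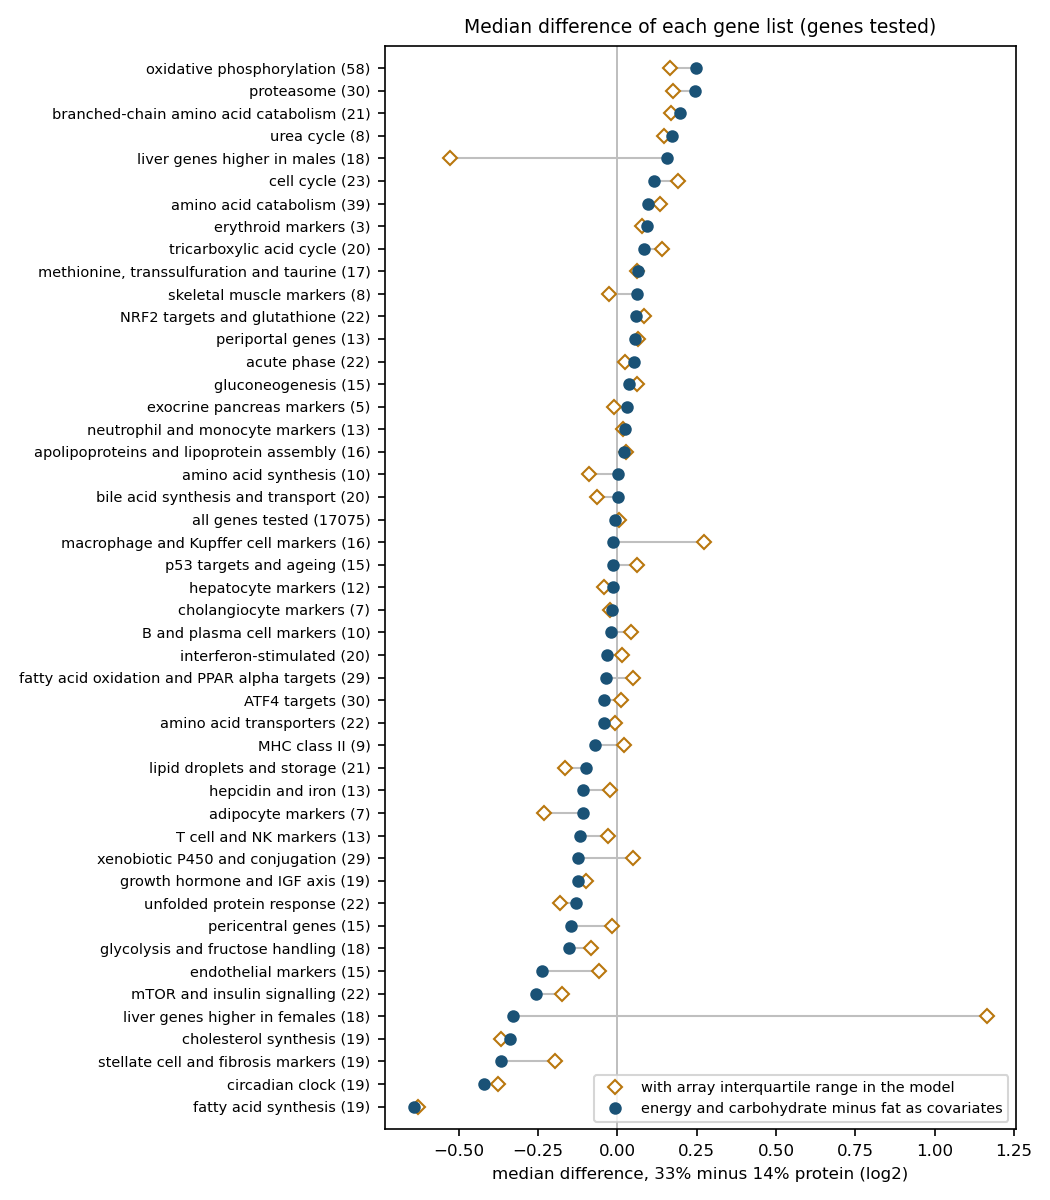
Median difference (33% minus 14% protein, log2) of each gene list but the sex chromosome genes, and of all 17075 genes tested, with the number of genes in brackets. Filled points are from the model with energy and carbohydrate minus fat, open diamonds from the model that also holds each array's interquartile range, and fatty acid synthesis lies lowest at -0.64 in the first and -0.63 in the second, while the sex-biased lists change sign.

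Signalling genes of insulin and mTOR lay lower. Of 22 genes, 16 were negative with a median of -0.26 and 8 lay lower at an unadjusted p under 0.05, 2 with the interquartile range as a term. The median was -0.31 in High energy mice, -0.21 in Medium energy mice, -0.16 on the carbohydrate-rich diets and -0.46 on the fat-rich High energy diets. Mtor itself, the kinase that senses amino acids, differed by -0.78 ± 0.24 (limma adjusted p = 0.382), Eif4ebp2, a repressor of translation that it phosphorylates, by -0.61 ± 0.23, and Pik3r1, a subunit of the kinase below the insulin receptor, by -0.47 ± 0.19. In the growth hormone and IGF list 14 of 19 were negative with a median of -0.13. Irs1, the insulin receptor substrate, differed by -0.83 ± 0.28, Jak2, the kinase of the growth hormone receptor, by -0.48 ± 0.15, and Insr by -0.36 ± 0.17. At 33% protein, Mtor, Eif4ebp2 and Insr were lowest in the 2 High 33/20/47 mice, with means of 5.44, 6.96 and 6.95. The other 33% combinations had means from 6.46 to 6.70, from 7.77 to 8.20 and from 7.53 to 7.84. Xist lay above the Y-linked genes in both High 33/20/47 mice. Igf1, the circulating growth factor, differed by 0.067 ± 0.11 with a 95% interval from -0.17 to 0.30. Once the left-out mouse was added, the medians were -0.25 and -0.07 and 4 insulin and mTOR genes lay lower. Eif4ebp2 then differed by -0.40, Irs1 by -0.44 and Insr by -0.15.

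Clock genes had a median of -0.42 over 19 genes, 11 of them negative, and 5 lay lower at an unadjusted p under 0.05. Bhlhe40 differed by -0.48 ± 0.16, Rora by -0.46 ± 0.17, Cry2 by -0.69 ± 0.29 and Per1 by -0.75 ± 0.35. These transcripts cycle over the day, and the sources used here do not give the hour at which each liver was taken, so hour and diet cannot be told apart. The median was -0.23 in High energy mice and -0.10 in Medium energy mice, where Per1 differed by 0.46. With the left-out mouse added it was -0.23, 3 genes lay lower and Rora differed by -0.26.

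Acute phase genes were even, 12 positive of 22 with a median of 0.05, but the orosomucoids stood out by size. Orm3 ran from 2.41 to 6.06 with a median of 2.79 at 14% and from 2.92 to 7.01 with a median of 4.94 at 33%, a difference of 1.84 ± 0.62 (limma adjusted p = 0.382). Orm1 differed by 0.73 ± 0.32 and Orm2 by 1.65 ± 0.79. The 3 genes are near copies of one another and lie side by side, so their probe sets may share RNA and the values are uncertain as separate measurements. Il6ra, the receptor that drives the acute phase, differed by -0.76 ± 0.21.

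Of 29 genes of xenobiotic P450 and conjugation, 12 were positive with a median of -0.12, and 2 lay higher at an unadjusted p under 0.05, the sulfotransferases Sult1e1 (1.17 ± 0.45) and Sult1d1 (0.69 ± 0.27). Unfolded protein response genes were negative for 18 of 22 with a median of -0.13, with Herpud1, which helps clear misfolded proteins, at -0.40 ± 0.17. Pericentral genes had a median of -0.15 over 15 and periportal genes 0.06 over 13. In the pericentral list Oat, which breaks down ornithine, and Lhpp, a histidine phosphatase, lay higher, by 0.73 ± 0.21 and 0.65 ± 0.22. The lists for NRF2 targets and glutathione, hepcidin and iron, interferon, p53 targets and the cell cycle had medians of 0.06, -0.11, -0.03, -0.01 and 0.12. Cdkn1a, the cell cycle inhibitor p21, differed by -0.37 ± 0.50. When the left-out mouse was added, several of these medians changed sign: 0.20 for xenobiotic genes, 0.13 for pericentral genes and -0.06 for the cell cycle. The unfolded protein response median was then -0.04 and that of periportal genes 0.22, and Sult1e1 differed by 0.41 and Herpud1 by -0.21.

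Markers of other cells in the liver gave a mixed picture. In bulk tissue, fewer cells of a type and less RNA per cell cannot be told apart. Stellate cell and fibrosis markers were negative for 16 of 19 with a median of -0.37 and 3 lay lower at an unadjusted p under 0.05: Col4a1 (-0.68 ± 0.27), a basement membrane collagen, Bgn (-0.67 ± 0.27), a matrix proteoglycan, and Tgfb1 (-0.49 ± 0.21). This lean was not seen in the Medium energy mice alone, where 14 of the 19 stellate markers were positive with a median of 0.17, Col4a1 and Tgfb1 both differed by 0.17 and Bgn by 0.0092. In the 18 mice that include the left-out one, 6 lay lower, with a median of -0.36, and Tgfb1 differed by -0.90. Endothelial markers were negative for 12 of 15 with a median of -0.24, led by Vwf (-0.57 ± 0.21) and Pecam1 (-0.38 ± 0.17). With the interquartile range as a term these medians were -0.20 and -0.06, and 0 genes of either list lay lower at an unadjusted p under 0.05 in limma. The list means overlapped throughout, from -0.17 to 0.59 against -0.62 to 0.89 for stellate markers and from -0.29 to 0.32 against -0.78 to 0.40 for endothelial markers. The part of these cells in the results above was not tested.

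Macrophage markers had a median of -0.01 over 16 genes, 0.27 with the interquartile range as a term, and list means from -0.87 to 1.27 at 14% against -0.81 to 0.84 at 33%. Mpeg1, a perforin of macrophages, differed by 0.60 ± 0.23. Neutrophil and monocyte markers had a median of 0.02 over 13 genes, T cell and NK markers -0.12 over 13, B and plasma cell markers -0.02 over 10, MHC class II genes -0.07 over 9 and hepatocyte markers -0.01 over 12. Cholangiocyte, adipocyte, skeletal muscle, exocrine pancreas and erythroid markers had medians of -0.02, -0.11, 0.06, 0.03 and 0.09. Adipoq and Lep, which define fat cells, lay at or under 1.43 in all 17 mice.

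The left-out mouse stood apart in these lists. Its macrophage mean was 3.75 above the mean of the 17, its neutrophil and monocyte mean 5.20, its MHC class II mean 2.87 and its hepatocyte mean -0.84. S100a8, a granule protein of neutrophils, stood at 7.60 in it against at most 3.20 in the other mice, and Cyp2e1, a hepatocyte P450, at 9.30 against at least 12.34. With it added, the macrophage, neutrophil and MHC class II medians were -0.66, -0.66 and -0.64, those of T cell and NK and of B and plasma cell markers -0.30 and -0.19, and Mpeg1 differed by 0.052.

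Sex-biased liver genes differed from subset to subset. Of 18 genes known to be higher in females, 14 were negative with a median of -0.33, and 11 of 18 known to be higher in males were positive with a median of 0.16, while 0 genes of either list passed an unadjusted p of 0.05 in limma. With the interquartile range as a term the medians were 1.17 and -0.53. Once the left-out mouse was added, they were 0.11 and 0.31. In High energy mice the female and male medians were 0.40 and -0.19, and in Medium energy mice 0.30 and -0.26. On the fat-rich High energy diets, where Xist lay above the Y-linked genes in both mice at 33% and in 2 of 4 at 14%, the female list had a median of 2.51. That subset compares sexes as well as diets, and the 2 cannot be told apart in it.

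The protein difference was then asked to depend on the rest of the diet. The interaction with the carbohydrate minus fat share gave 793 genes at an unadjusted p under 0.05 (4.64%), and that with energy density 695 (4.07%), both under the 5% that chance gives on average. limma called 0 genes in either, with smallest adjusted p of 0.888 and 0.998. At 14% protein only 2 mice ate at Medium energy, and none of them ate the fat-rich diet. With so few mice, these counts do not show that the protein difference is independent of the rest of the diet. Bivm had the smallest p for energy, with an interaction of -1.32 ± 0.29 and differences of 0.67 in High energy and -0.56 in Medium energy mice.

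The 17 mice can be set beside the rest of the range, which was not in the fit. The means below are raw and pool the diets and energy densities at each share. Every mouse at 5% protein ate at High energy, and the mice at 23%, 42% and 60% included Low energy ones. Protein share and energy density therefore cannot be told apart across the range. The means at 14% leave out the 1 mouse named above. Lncbate1 stood at 2.52 ± 0.79 (SD, n = 10) at 5% protein, 3.25 ± 0.80 (SD, n = 8) at 14%, 3.83 ± 0.56 (SD, n = 9) at 23%, 5.07 ± 0.50 (SD, n = 9) at 33%, 5.19 ± 0.95 (SD, n = 5) at 42% and 5.04 ± 0.92 (SD, n = 6) at 60%. In these means most of its span lay between 14% and 33%, and the 3 highest shares did not differ beyond their spread. Lncbate1 and Cth were named for their small p between 14% and 33%, so a wide step there was selected for. Cth followed the same order up to 33%, with means of 9.73, 10.12, 10.46, 10.94, 10.81 and 11.16 at the 6 shares, and Nnmt had means of 3.33, 5.63, 6.36, 7.24, 7.16 and 7.35.

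Fgf21 and Lepr had a different shape. Fgf21 stood at 8.64 ± 0.58 (SD, n = 10) at 5% protein and then at means of 5.92, 5.98, 5.51, 5.52 and 4.62, so the large step lay below 14%. Lepr stood at 8.31 ± 0.62 (SD, n = 10) at 5% and at means of 5.35, 5.71, 5.23, 6.31 and 4.71 above it. Psat1 had its step in the same place, with a mean of 3.94 at 5% and means from 1.37 to 1.71 at the other shares. The left-out 14% mouse stood near the 5% means for Psat1 (3.93) and Lepr (7.87) but not for Fgf21 (3.65). With it the 14% means were 1.77 ± 0.85 for Psat1, 5.63 ± 1.18 for Lepr and 5.67 ± 1.04 for Fgf21 (SD, n = 9). Fasn stood at 10.28 ± 0.78 (SD, n = 8) at 14%, against 9.69 ± 0.45 (SD, n = 10) at 5%, 9.69 ± 1.02 (SD, n = 9) at 23% and means of 8.96, 9.02 and 8.88 at 33%, 42% and 60%, and neighbouring shares lay within each other's spread. With the left-out mouse the 14% mean of Fasn was 9.67 ± 1.95 (SD, n = 9), level with those at 5% and 23%.

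The 9 mice at 23% protein offer values from animals outside the comparison. Their mean lay between the 14% and 33% means for 1747 of the 1982 genes with an unadjusted p under 0.05 (88.1%) and for 7894 of all 17075 genes (46.2%). The 1982 genes were chosen for a wide gap between those means, which by itself leaves more room for a value between them.

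**Figure D4:**
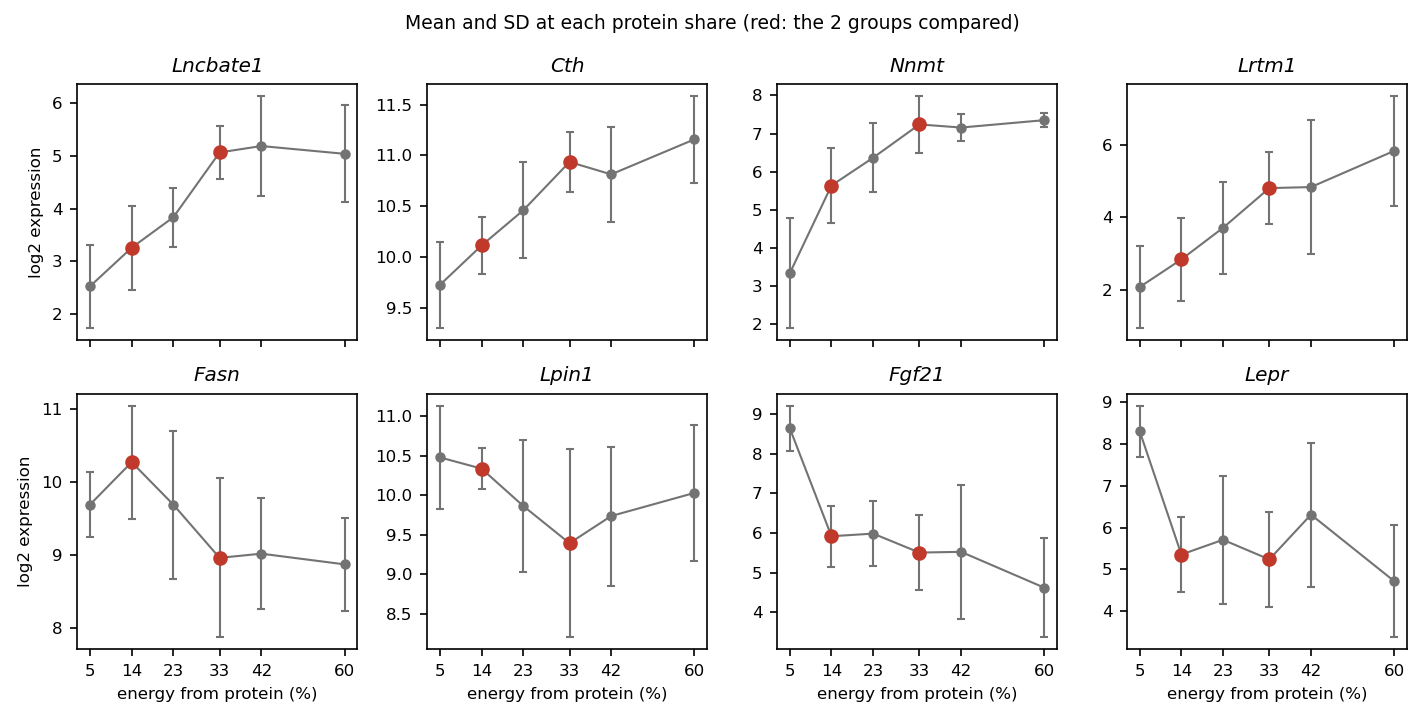
Mean and SD of log2 expression at 5%, 14%, 23%, 33%, 42% and 60% of energy from protein (10, 8, 9, 9, 5 and 6 mice), with the compared groups in red and the left-out mouse not plotted. Diets and energy densities are pooled at each share, and 23%, 42% and 60% include Low energy mice. Lncbate1, Cth, Nnmt and Lrtm1 lie higher at 33% than at 14%, Fasn and Lpin1 lie lower, and Fgf21 and Lepr are near level between the 2 groups after a high mean at 5%.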

How the data were processed

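Total RNA from 48 mouse livers, 1 array each, was measured on Affymetrix arrays (per the labels' protocols). The deposited values were taken as log2 expression from their range (-0.51 to 13.42); the sources used here do not give the authors' normalization or software. Of 41345 probe sets, 23521 had 1 gene symbol in the platform annotation, 1814 had several and 16010 none; 23328 matched RefSeq by gene ID. A gene was its probe set of highest mean (22180 genes). Genes whose mean exceeded 1.17 (percentile 30 of probe set means) were tested, 17075 in all.

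limma 3.58.1 in R 4.3.3 (lmFit, eBayes with a trend) fitted protein, energy density and carbohydrate minus fat share; p-values were two-sided and Benjamini-Hochberg adjusted over all genes. Simulated data with known differences were used as a test (6.21% false among calls). No 2 arrays were identical (highest r 0.982). The mice, gene lists and motifs were chosen with earlier results of these data known. Named genes were the 6 of smallest p in each direction, up to 4 per list, a set of diet-responsive genes, and those said to be named after their values. Alternatives changed the filter, probe sets, normalization, weights, variance model, covariates or mice, or left out each mouse.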

Additional observations from a re-analysis of the deposited data

Results flagged for a closer look

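Of 206 groups of values examined (8 or 9 mice at 1 protein share, for each gene named and for the median and interquartile range of the arrays), 17 held a mouse far from the others of its group, 8.25%, where chance gives about 1 in 20. At 14% protein the far mouse was the highest for 9430083A17Rik (1.72), Kynu (8.77) and Col4a1 (5.81), and the lowest for Sult1d1 (7.94), Pck1 (11.71) and Cdkn1a (5.22). At 33% protein it was the highest for Epn1 (7.24), Mcee (7.52), Mlxipl (9.02), Ppara (8.04), Vwf (4.12), Mpeg1 (8.54), Psat1 (2.86) and Coq2 (6.50), and the lowest for Agxt (9.68), Ndufa13 (7.99) and Csad (5.32). Replicate 3 of Medium 33/20/47 was the far mouse for Ndufa13, Vwf, Psat1 and Csad, and replicate 1 of High 33/47/20 for Agxt, Mlxipl and Ppara.

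The Medium 14/29/57 mouse, left out of the comparison, had list means of 3.75 for macrophage and Kupffer cell markers, 5.20 for neutrophil and monocyte markers and 2.87 for MHC class II genes, relative to the mean of the 17 mice and above the highest of the 8 mice at 14% (1.27, 0.72 and 0.85).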

How the results depend on the processing

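Of 1738 list medians under an alternative, 1701 stayed within 1 SD of the spread between mice. That SD could exceed the median itself, so this count does not show that the medians were stable. Cholesterol synthesis, with an SD of 0.45, went from -0.34 to 0.06 with the Medium 14/29/57 mouse and still counted as within it. Of 3982 gene values 27 changed direction and 11 passed the threshold. The count of genes called by limma, 0, was 1 (Lncbate1) with quantile normalization, a robust variance or the Y-linked minus Xist value. It was also 1 (Lncbate1) with the diet combination as a random block or the Medium 14/29/57 mouse added. In the matched combinations, 8 against 6 mice, of a model of all 48 it was 2 (Lncbate1 and Mc5r, limma adjusted p = 0.0467). It was 0 to 2 without 1 mouse. Without High 33/47/20 replicate 1 or Medium 14/57/29 replicate 1 it was 1 (Lncbate1), and without High 14/57/29 replicate 2 it was 2 (Lncbate1 and Cth, adjusted p = 0.048). Other filters, the mean of probe sets and the interquartile range gave 0. The interactions called 0 genes under every alternative run.

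With the Medium 14/29/57 mouse, medians were 0.44 for amino acid catabolism, 0.34 urea cycle, 0.38 branched-chain catabolism, 0.20 methionine, 0.31 bile acids, 0.14 apolipoproteins, 0.20 xenobiotic, 0.22 periportal, 0.083 hepatocyte, -0.66 macrophage, -0.66 neutrophil and -0.64 MHC class II, Fgf21 was 0.0069 and Psat1 -0.19. In High energy mice, amino acid catabolism was 0.21, periportal -0.080, Asns -0.74, Pck1 -0.080 and Igfbp1 -0.0093. In Medium energy mice (2 against 5), methionine was -0.078, ATF4 targets 0.35, cholesterol -0.92, bile acids -0.21, p53 0.32, cell cycle 0.57, periportal 0.30, neutrophil 0.28, stellate 0.17, cholangiocyte 0.40, Slc38a3 0.0027, Per1 0.46, Col4a1 0.17, Bgn 0.0092, Tgfb1 0.17, Lepr 0.50, Cpt1a 0.030 and Cdkn1a 0.25. On carbohydrate-rich diets, oxidative phosphorylation was 0.10, adipocyte 0.33, Cpt1a 0.032, Cdkn1a 0.022 and Psat1 -0.016. On fat-rich High energy diets, urea cycle was 0.40, branched-chain catabolism 0.38, amino acid synthesis -0.23, oxidative phosphorylation 0.44, iron 0.27, xenobiotic 0.35, unfolded protein response -0.41, female genes 2.51, sex chromosome genes -2.02, neutrophil -0.27, Orm2 -0.15, Fgf21 0.19, Asns -1.95, Lepr 0.96 and Cyp7a1 0.20. Asns was -0.30 with the interquartile range, -0.098 with the Y-linked minus Xist value and -0.074 with both. With the stricter filter the skeletal muscle median was -0.12. Without 1 mouse, Asns ran from -0.29 to 0.79 and Pck1 from -0.064 to 0.12. The cause of these changes was not tested. No paired analysis was possible because replicate numbers were given in accession order and pair no mice.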

Other observations

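Among mice whose arrays had Xist above the Y-linked genes, Xist itself differed between the protein groups. It lay between 7.60 and 8.82 in the 4 such mice at 14% and between 5.59 and 6.18 in the 4 at 33%, with no overlap. At 5% protein it lay between 8.25 and 9.52 (4 mice), at 23% between 4.78 and 9.53 (6 mice), at 42% between 5.89 and 9.23 (4 mice) and in the 2 mice at 60% at 6.04 and 9.17. Over all 24 such arrays Xist followed the array's interquartile range (Pearson r = 0.86, as a description of arrays that differ in diet and contrast together), and the 4 mice at 14% had ranges from 3.37 to 3.45 against 2.96 to 3.29 at 33%.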
